A study of Mus musculus with 10 samples.

Results

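The Sult2a genes form a cluster of cytosolic sulfotransferase genes on mouse chromosome 7. The 8 genes Sult2a1 to Sult2a8, of 55401 genes in the expression table, were chosen by the level of Sult2a3, which was higher in NIKhKO livers, so the contrast between the genotypes had already been used to choose them. Values of the members in that contrast are therefore given as a description with no test. Livers of 5 NIKhKO mice and 5 NIKflox mice were sequenced after oligo(dT) selection of total RNA. All 10 animals had received 5% ethanol in a Lieber-DeCarli liquid diet over 4 weeks, so that no liver without ethanol enters any comparison. Map3k14 encodes NIK, the NF-kB inducing kinase. NIKflox animals carry the floxed allele and are the controls. The series title and design text name hepatic NIK and NIKHKO mice, while the sources used here give neither the Cre line nor the age and sex of the animals. Since the labels do not tie libraries to litters or cages, p-values cover only the spread between these 10 samples, which may be partly technical.

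Sult2a enzymes transfer a sulfonate group from the donor PAPS to hydroxyl groups of steroids such as dehydroepiandrosterone and of bile acids. The sulfonated product is more soluble in water and is exported from the hepatocyte by conjugate transporters. In rodent liver the genes are known as targets of the nuclear receptors FXR, PXR, CAR and VDR, and several of them, Sult2a1 among these, are known to be expressed more in females than in males.

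The members differ in their promoters at an element that rodent Sult2a genes are known for, an inverted repeat of nuclear receptor arms with no base between the arms. RefSeq promoters on GRCm38.p6 were matched for 5 of the 8 members, Sult2a3, Sult2a4, Sult2a5, Sult2a6 and Sult2a8. In the first 4 of these a 12-base stretch that ends in the arm TGAACT lay upstream of the start site. These stretches are shown because rodent Sult2a genes are known for this element. Sult2a3, Sult2a4 and Sult2a6 each differed from Sult2a5 at 1 base. A link between these letters and the levels of the genes was not tested. Each line is 5′ to 3′ on the strand of its gene, and capitals mark the element.
Sult2a3: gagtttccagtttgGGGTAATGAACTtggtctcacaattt
Sult2a5: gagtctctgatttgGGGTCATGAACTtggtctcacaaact
Sult2a4: tttcGAGTCATGAACTtggtctcacaaatt
Sult2a6: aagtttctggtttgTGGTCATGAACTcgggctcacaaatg
The Sult2a3 line is chr7:14123213-14123252 on the minus strand, and its element begins 190 bases before the start site. The Sult2a5 line is chr7:13623786-13623825 on the plus strand, with the element 167 bases before the start site. The Sult2a4 line is chr7:13989809-13989838 on the minus strand, with the element 246 bases before it. The Sult2a6 line is chr7:14255056-14255095 on the minus strand, with the element 211 bases before it. Counted from 1 at the 5′ end of the element, Sult2a3 differed from Sult2a5 by C5A, Sult2a4 by G2A and Sult2a6 by G1T. On either strand, GGGTAATGAACT was found in 4 of 32851 mouse promoters of the same length (0.0122%) and GGGTCATGAACT in 2 of them (0.00609%). The Sult2a4 form GAGTCATGAACT was found in 1 (0.00304%) and the Sult2a6 form TGGTCATGAACT in 2 (0.00609%). The shorter core TCATGAACT, which lies within the last 3 of these forms, was present in 71 promoters (0.216%), and TAATGAACT, which lies within the Sult2a3 form, in 78 (0.237%). All these counts include the windows of the members themselves, from which the letters were taken. At least 1 match per form was therefore given in advance. A match of letters is a description and does not show binding. The nuclear receptor arm AGGTCA, present on either strand in 16.3% of promoters, was absent from the windows of Sult2a3, Sult2a4, Sult2a5 and Sult2a6. It was present in 1 of the 2 promoter windows of Sult2a8. Only this single arm was searched, and no repeat of it.

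The whole Sult2a3 promoter window, 300 bases around the start site at chr7:14122999-14123298 on the minus strand, is shown so that the element can be read in its place.
Sult2a3: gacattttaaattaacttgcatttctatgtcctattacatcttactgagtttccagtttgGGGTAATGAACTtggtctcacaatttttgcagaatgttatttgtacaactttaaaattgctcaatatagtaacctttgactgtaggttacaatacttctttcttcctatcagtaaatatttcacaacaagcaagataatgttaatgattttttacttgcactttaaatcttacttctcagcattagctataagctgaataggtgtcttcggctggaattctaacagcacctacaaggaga
The Sult2a3 window was 92.6% identical to that of Sult2a4 over 242 aligned bases, 87.4% to that of Sult2a5 over 277 and 81.4% to that of Sult2a6 over 279, with the unaligned bases left out. Sult2a4, with the highest identity over the shortest aligned part, was nearly silent in these livers, at a mean of 0.979 FPKM in NIKhKO and 0.559 FPKM in NIKflox. FPKM is the number of fragments scaled to the length of the transcript and the depth of the library.

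The coding sequences are also close, which matters for how reads are shared among the members. In the GENCODE M21 annotation Sult2a1, Sult2a3, Sult2a4, Sult2a5 and Sult2a6 each have a coding sequence of 858 bases in 6 exons. Sult2a2 has 585 coding bases in 4 exons, Sult2a7 has 942 in 7 exons and Sult2a8 has 849 in 7 exons. Coding bases 283 to 327 are shown for the members with 858 coding bases because Sult2a3 can be told from the others there. Capitals in the Sult2a3 line mark bases at which at least 1 other line differs, and capitals in the other lines mark differences from Sult2a3.
Sult2a3: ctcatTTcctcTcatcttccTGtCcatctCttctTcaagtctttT
Sult2a1: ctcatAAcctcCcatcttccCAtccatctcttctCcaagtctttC
Sult2a4: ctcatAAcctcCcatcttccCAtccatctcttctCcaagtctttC
Sult2a5: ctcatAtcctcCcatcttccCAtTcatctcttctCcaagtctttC
Sult2a6: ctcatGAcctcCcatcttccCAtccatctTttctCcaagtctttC
Within this window Sult2a1, Sult2a4 and Sult2a5 each differed from Sult2a3 at 7 bases and Sult2a6 at 8 bases. Over all 858 coding bases Sult2a3 was 93.7% identical to Sult2a1, 94.4% to Sult2a4, 93.5% to Sult2a5 and 88.0% to Sult2a6. Over the aligned bases alone it was 93.8% identical to Sult2a2 (585 bases), 81.1% to Sult2a7 (854 bases) and 71.4% to Sult2a8 (838 bases). Sult2a1 and Sult2a2 were the closest pair, at 97.9% of 585 aligned bases.

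A read that falls in a stretch common to several members cannot be placed in one of them. Of all 50-base stretches of the annotated transcripts, 62.1% of those of Sult2a2 were also found in another member, and the shares for Sult2a5, Sult2a1 and Sult2a4 were 34.5%, 33.2% and 25.5%. For Sult2a3 the share was 8.4%, for Sult2a6 6.6%, and for Sult2a7 and Sult2a8 it was 0.0%. With stretches of 100 bases the share was 34.6% for Sult2a2, 16.6% for Sult2a5, 11.4% for Sult2a1 and 5.8% for Sult2a4, and 0.0% for Sult2a3, Sult2a6, Sult2a7 and Sult2a8. Sult2a5 shared most with Sult2a2, at 22.2% of its 50-base stretches, and 18.8% of the 100-base stretches of Sult2a2 occurred in Sult2a5. The split of reads among Sult2a1, Sult2a2 and Sult2a5 is thus uncertain, while few stretches of Sult2a3 occur in another member.

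**Figure D1:**
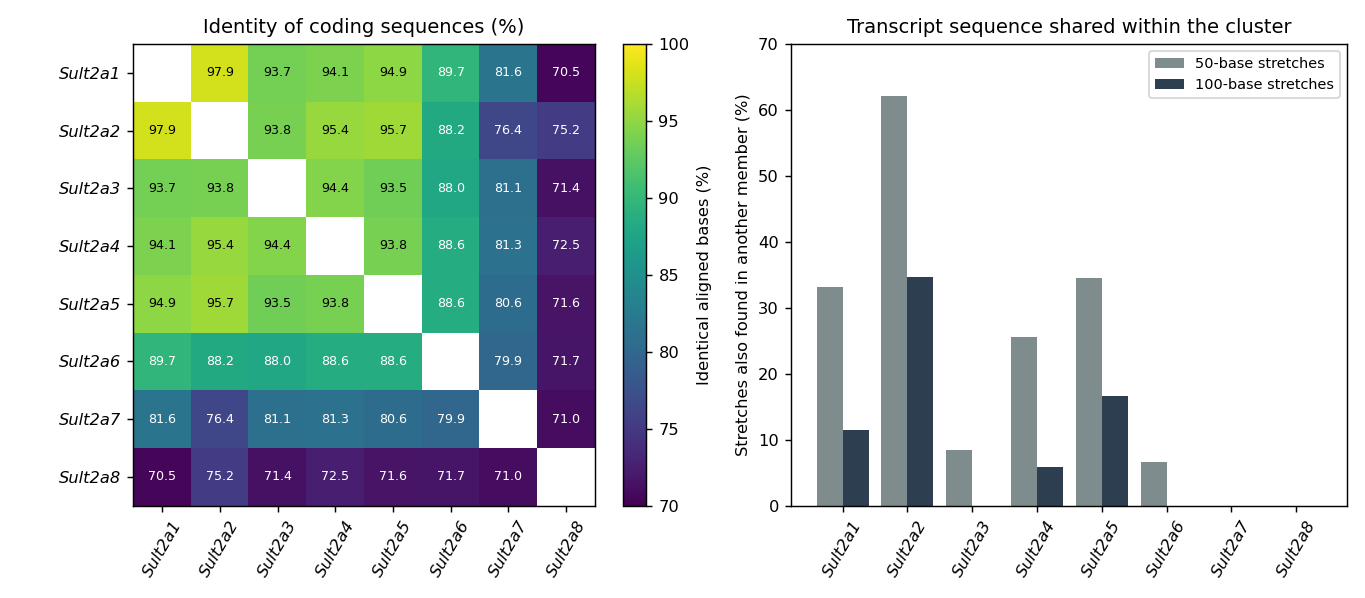
Left, identity of the coding sequences for each pair of Sult2a genes (% of aligned bases, colour scale starting at 70). Right, the share of 50-base and 100-base stretches of each gene's transcripts that also occur in another member, which was highest for Sult2a2 (62.1% at 50 bases) and 0.0% for Sult2a3 at 100 bases.

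Total estimated counts ran from 53225028 to 64321202 in NIKhKO libraries and from 47161869 to 65052525 in NIKflox libraries. Map3k14 had 0.347 to 0.443 FPKM in NIKhKO livers and 0.483 to 0.899 FPKM in NIKflox livers (log2 fold change -0.59, SE 0.19, n = 5 each; edgeR adjusted p = 0.33), with ranges that did not overlap. The sources used here do not say which exons the allele removes. The 11 hepatocyte markers in the table summed to 56301 to 72040.2 FPKM in NIKhKO livers and 57507 to 68016 FPKM in NIKflox livers. Xist ran from 14.4 to 20.8 FPKM over the 10 libraries, and no library had more than 0.0156 FPKM of Ddx3y, Kdm5d, Uty or Eif2s3y, 4 genes of the Y chromosome. NIKflox 2 and NIKflox 4 stood apart in markers of other tissues. The summed adipose markers were 29.4 FPKM in NIKflox 2, against 3.17 to 4.52 FPKM in NIKhKO livers and 3.25 to 4.77 FPKM in the other NIKflox livers. Heart muscle markers were 29.1 FPKM in NIKflox 4 and 6.63 FPKM in NIKflox 2, against 0.116 to 0.958 FPKM in the 5 NIKhKO libraries.

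The cluster spans chr7:13623967-14494230, 870.3 kb, in the coordinates of the deposited table, which are those of GRCm38 for all 8 members. In order along the chromosome lie Sult2a5, Sult2a2, Sult2a1, Sult2a4, Sult2a3, Sult2a6, Sult2a8 and Sult2a7. Sult2a5 and Sult2a2 are on the plus strand and the other 6 on the minus strand. The members were expressed at levels that differ widely. Sult2a1 was the 85th most abundant gene of the table by mean FPKM, Sult2a2 the 138th, Sult2a5 the 523rd, Sult2a3 the 584th and Sult2a8 the 885th. In 10 of 10 libraries Sult2a1 was above Sult2a2, and Sult2a2 above Sult2a5. Sult2a3 and Sult2a5 did not keep an order, with Sult2a3 above Sult2a5 in 3 of 5 NIKhKO libraries and 1 of 5 NIKflox libraries. By FPKM, Sult2a3 was above Sult2a8 in 5 of 5 NIKhKO libraries and in 2 of 5 NIKflox libraries. Estimated counts, which are not scaled to length, gave another order. By count Sult2a8 was above Sult2a3 in NIKhKO 3, 4 and 5 and in every NIKflox library, and below it in NIKhKO 1 and 2.

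**Figure D2:**
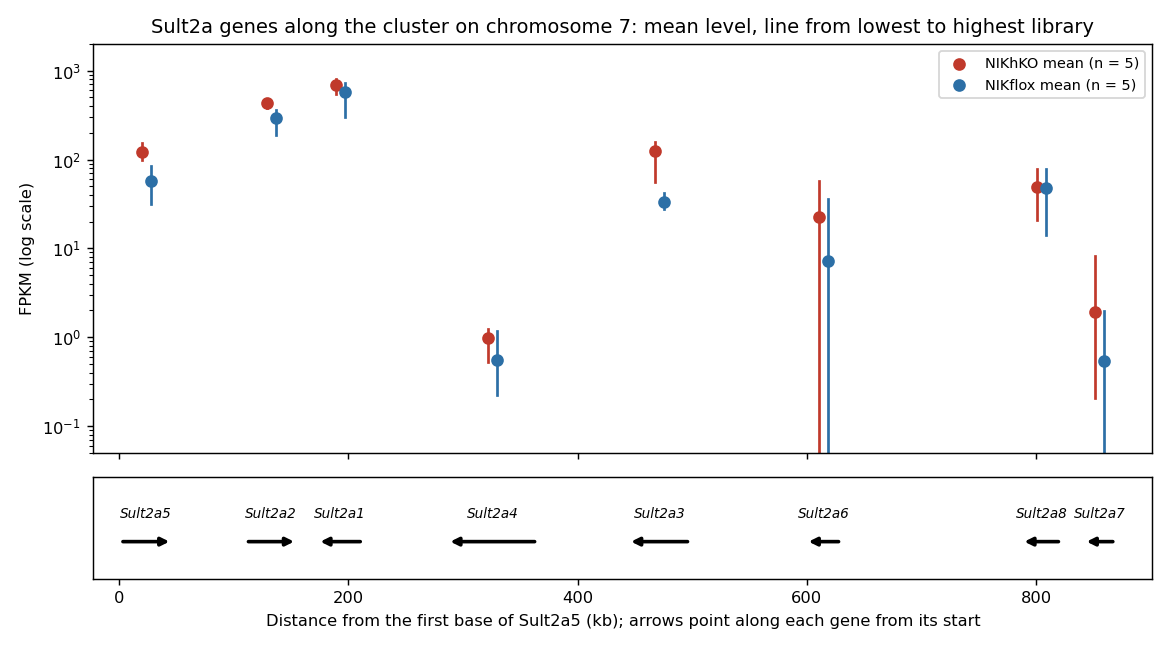
Top, mean FPKM (log axis) of each Sult2a gene in 5 NIKhKO and 5 NIKflox livers, with a line from the lowest to the highest library that ends at the axis where a library lies below it. Bottom, position and direction of the genes in kb from the first base of Sult2a5; the most abundant members, Sult2a1 and Sult2a2, lie side by side, and Sult2a3 shows the largest fold difference between genotypes among genes measured in every library.

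Sult2a3, Sult2a5 and Sult2a2 were higher in every NIKhKO liver than in any NIKflox liver. These are 3 of the 8 members, and 0 of 8 were lower without overlap. Sult2a5 and Sult2a2 share stretches of sequence, so their levels are not fully separate measurements. Across the 12731 genes tested, 0.605% were higher without overlap and 1.59% lower without overlap. Since the contrast chose the cluster, nothing is read from the members' count. All 8 members passed the filter on low values, a mean of at least 0.5 FPKM over the 10 libraries. Without NIKflox 2 and NIKflox 4 the same 3 members were higher without overlap. In bulk liver, fewer cells of a type and less RNA per cell cannot be told apart.

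Sult2a3 (ENSMUSG00000074375, chr7:14067446-14123044, minus strand) had 132, 153, 120.3, 56.4 and 157 FPKM in NIKhKO 1 to 5, against 31.2, 33.5, 29.5, 28.1 and 42.4 FPKM in NIKflox 1 to 5. The genotypes did not overlap, and NIKhKO 4 lay far below the other 4 NIKhKO libraries but above all NIKflox libraries. The mean was 124 ± 40.6 FPKM in NIKhKO and 33.0 ± 5.65 FPKM in NIKflox (SD, n = 5 each), a ratio of 3.76. The log2 fold change from the fit across all genes was 1.97 (SE 0.25). Among all genes tested, 20 had a log2 fold change at least that large, Sult2a3 included. The levels varied 2.79-fold among NIKhKO livers and 1.51-fold among NIKflox livers.

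Sult2a5 (ENSMUSG00000078799, chr7:13623967-13670807, plus strand), at the opposite end of the cluster from Sult2a7, had 153, 122, 100.4, 98.3 and 132 FPKM in NIKhKO 1 to 5, against 46.1, 31.4, 85.0, 64.7 and 58.0 FPKM in NIKflox 1 to 5. The lowest NIKhKO liver lay above the highest NIKflox liver. The mean was 121 ± 22.8 FPKM in NIKhKO and 57.0 ± 20.1 FPKM in NIKflox (SD, n = 5 each), a ratio of 2.13 and a log2 fold change of 1.16 (SE 0.22). Without NIKflox 2, its lowest library, the log2 fold change was 1.01.

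Sult2a1 and Sult2a2, classical hydroxysteroid sulfotransferases of mouse liver, made up most of the cluster's transcripts. Sult2a2 (ENSMUSG00000070811, chr7:13733505-13779636, plus strand) had 477, 466, 383, 414 and 432 FPKM in NIKhKO 1 to 5, against 269, 190.2, 361, 338 and 317 FPKM in NIKflox 1 to 5. These groups did not overlap, at 434 ± 38.5 FPKM in NIKhKO and 295 ± 67.7 FPKM in NIKflox (SD, n = 5 each; log2 fold change 0.62, SE 0.14). Sult2a1 (ENSMUSG00000078798, chr7:13796246-13837409, minus strand) had 737, 802, 541, 721 and 689 FPKM in NIKhKO 1 to 5, against 562, 304, 541, 731 and 727 FPKM in NIKflox 1 to 5. For Sult2a1 the genotypes overlapped over most of their range, and NIKflox 2 stood lowest. The means of Sult2a1 were 698 ± 96.9 FPKM in NIKhKO and 573 ± 175 FPKM in NIKflox (SD, n = 5 each). Its log2 fold change was 0.35 (SE 0.20), and 0.19 without NIKflox 2. That library was lowest of the 10 in Sult2a1, Sult2a2 and Sult2a5, and highest in the summed markers of cholangiocytes (56.1 FPKM), stellate cells (94.2 FPKM) and sinusoidal endothelial cells (81.3 FPKM). The part of those markers in its Sult2a levels was not tested.

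Sult2a8 (ENSMUSG00000030378, chr7:14410686-14446769, minus strand), which encodes an enzyme described in mouse liver as a bile acid sulfotransferase, did not separate the genotypes. It had 21.1, 38.5, 78.4, 44.5 and 61.6 FPKM in NIKhKO 1 to 5, against 77.3, 61.8, 43.9, 14.1 and 41.1 FPKM in NIKflox 1 to 5. The means were 48.8 ± 22.0 FPKM in NIKhKO and 47.6 ± 23.8 FPKM in NIKflox (SD, n = 5 each; log2 fold change 0.09, SE 0.44). Its sign rested on single libraries, at -0.17 without NIKhKO 3, -0.01 without NIKhKO 5, -0.14 without NIKflox 4 and 0.36 without NIKflox 1. Levels of Sult2a8 varied 3.72-fold among NIKhKO livers and 5.46-fold among NIKflox livers, more than those of Sult2a1, Sult2a2, Sult2a3 or Sult2a5 in the same genotype. The ratio of count to FPKM corresponds to a length of 3285 bases for Sult2a8, against 2143 bases for the annotated transcript compared above. Its FPKM therefore rests on a longer model than the FPKM of the members with a single transcript. The order of Sult2a8 beside other members and its share of the summed FPKM depend on that length.

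Sult2a7 (ENSMUSG00000094156, chr7:14465051-14494230, minus strand) lies next to Sult2a8 at the end of the cluster. It had 8.14, 0.204, 0.21, 0.603 and 0.34 FPKM in NIKhKO 1 to 5, against 0.3, 0.335, 0.0001, 1.97 and 0.0867 FPKM in NIKflox 1 to 5, where 0.0001 stands for a count of 0. A single library was high in each genotype, NIKhKO 1 and NIKflox 4. These are also the libraries with the lowest Sult2a8 level of their genotype, 21.1 FPKM in NIKhKO 1 and 14.1 FPKM in NIKflox 4. With NIKhKO 1 the log2 fold change of Sult2a7 was 1.88 (SE 1.28), and without it -0.54, so the direction rests on that library.

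Sult2a6 (ENSMUSG00000070810, chr7:14222403-14254870, minus strand) was either present at a moderate level or nearly undetected, in both genotypes. It reached 57.0 FPKM in NIKhKO 2 and 54.5 FPKM in NIKhKO 5, and 36.0 FPKM in NIKflox 4. These 3 libraries had counts of 2515 to 3928, while the other 7 libraries had counts of at most 4, with 5 of them at 0. The other libraries therefore reached at most 0.0694 FPKM. Fitted log2 fold changes ran from 1.04 to 9.29 when single libraries were left out, so no fold change is given for Sult2a6. High and low libraries occurred in both genotypes.

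Sult2a4 (ENSMUSG00000074377, chr7:13909676-13989607, minus strand) was close to the limit of detection. It had 1.16, 0.856, 0.53, 1.24 and 1.12 FPKM in NIKhKO 1 to 5, against 0.226, 0.642, 0.362, 0.402 and 1.16 FPKM in NIKflox 1 to 5. NIKflox 5 and NIKflox 2 lay within the NIKhKO range, and the other 3 NIKflox libraries lay below it. The log2 fold change was 0.85 (SE 0.43), and 1.31 without NIKflox 5. Sult2b1, the cholesterol sulfotransferase of the related Sult2b family, was listed at no more than 0.00527 FPKM in any NIKhKO liver and no more than 0.0277 FPKM in any NIKflox liver.

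**Figure D3:**
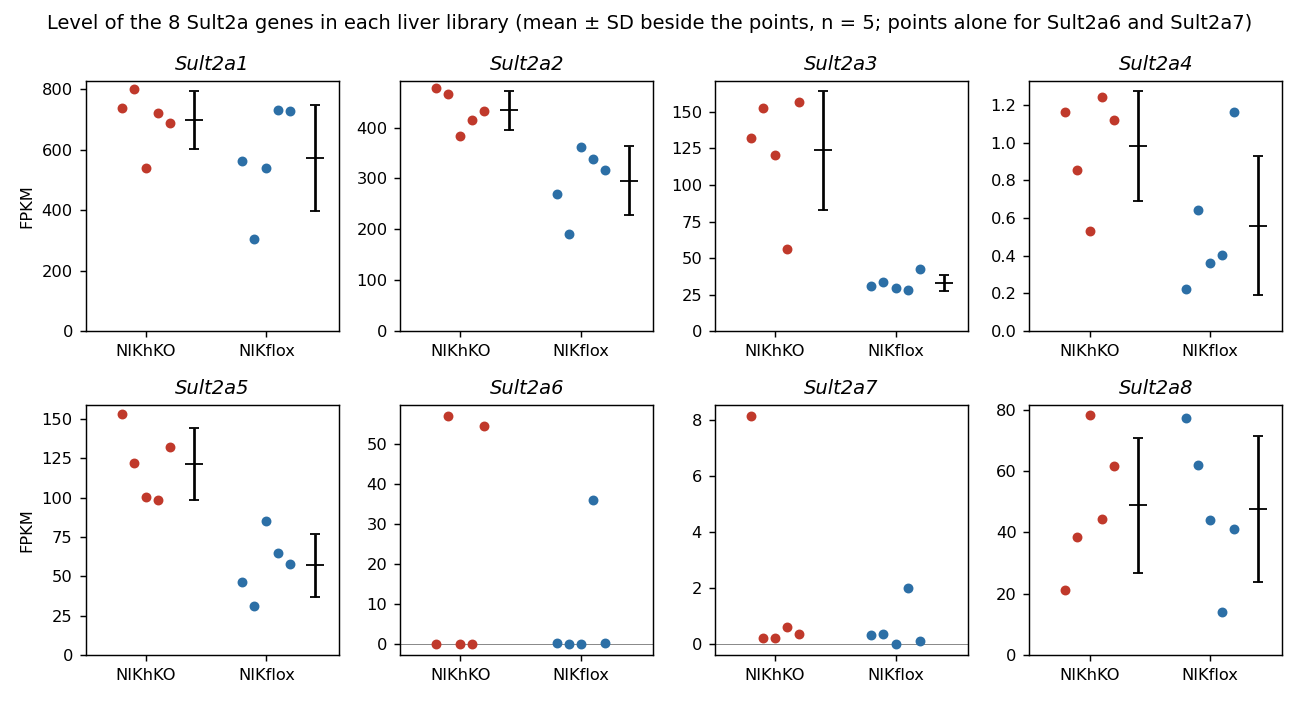
FPKM of each Sult2a gene in the 5 NIKhKO and 5 NIKflox liver libraries (points, in the order of the replicate numbers), with mean ± SD beside the points except for Sult2a6 and Sult2a7. NIKhKO points lie above all NIKflox points for Sult2a2, Sult2a3 and Sult2a5, and Sult2a6 is high in 3 libraries, 2 NIKhKO and 1 NIKflox.

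The members were also summed. A sum of FPKM still weights a shared read by the length of the member it was given to, while a sum of counts does not. The summed FPKM was 1529, 1641, 1224, 1336 and 1527 FPKM in NIKhKO 1 to 5, against 986, 622, 1061, 1214 and 1187 FPKM in NIKflox 1 to 5. The genotypes did not overlap, though NIKhKO 3 exceeded NIKflox 4 by less than the SD within either genotype. The mean sum was 1451 ± 168 FPKM in NIKhKO and 1014 ± 238 FPKM in NIKflox (SD, n = 5 each), a ratio of 1.43 and a log2 ratio of 0.52. Without Sult2a3 the log2 ratio of the sums was 0.44, without Sult2a1 it was 0.77, and without NIKflox 2 it was 0.38. With Sult2a3 left out, the summed FPKM of NIKhKO 3 lay below NIKflox 4 and NIKflox 5, so the genotypes then overlapped. Summed as CPM, counts scaled to the library total but not to length, the members had 1610 ± 161 in NIKhKO and 1164 ± 219 in NIKflox (SD, n = 5 each), again without overlap and with a log2 ratio of 0.47.

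**Figure D4:**
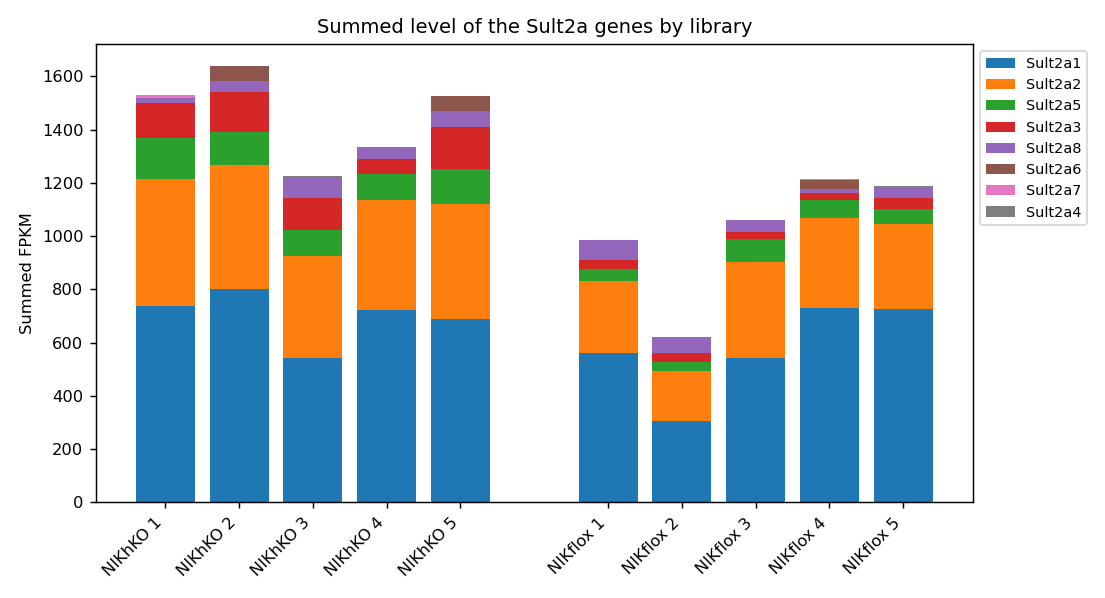
Summed FPKM of the 8 Sult2a genes in each library, stacked by gene, with the NIKhKO libraries to the left of the NIKflox libraries. NIKhKO sums ran from 1224 to 1641 FPKM and NIKflox sums from 622 to 1214 FPKM, with Sult2a1 and Sult2a2 forming the largest parts in every library.

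The make-up of the cluster also differed in its means, although every share overlapped between genotypes. Sult2a1 made up 48.1 ± 3.85% of the summed FPKM in NIKhKO and 55.7 ± 5.50% in NIKflox (SD, n = 5 each). Sult2a2 held nearly the same share, 30.0 ± 1.54% in NIKhKO and 29.3 ± 3.04% in NIKflox. Sult2a3 took 8.46 ± 2.45% in NIKhKO, with a range of 4.22 to 10.3%, and 3.44 ± 1.18% in NIKflox, with a range of 2.31 to 5.39%. Sult2a5 took 8.33 ± 1.07% in NIKhKO and 5.59 ± 1.37% in NIKflox, and Sult2a8 3.50 ± 1.91% in NIKhKO and 5.31 ± 3.53% in NIKflox. Set against Sult2a1 of the same library, Sult2a3 had a ratio of FPKM values of 0.0782 to 0.228 in NIKhKO and 0.0384 to 0.11 in NIKflox. The overlap in that ratio came from NIKhKO 4 (0.0782) and NIKflox 2 (0.11), the library with the lowest Sult2a1.

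The span of the cluster holds 18 other genes, 17 of them annotated as pseudogenes, and 14 of the 18 stayed under a mean of 0.5 FPKM. Of these, Tmem167-ps3, Sult2a-ps3, Sult2a-ps4, Rpap3-ps1, Rpap3-ps2, Mrps36-ps3 and Crs-ps were listed at 0.0001 FPKM in every library. Kat6b-ps1, Zbed4-ps2, Sult2a-ps2, Tmem167-ps2, Zbed4-ps3, Phf20-ps and the protein-coding Obox8 reached at most 0.985 FPKM in a library. None of the 4 tested passed an adjusted p of 0.05 in edgeR's quasi-likelihood test, against 0.0236% of all genes tested, 0.0157% in the direction of higher and 0.00785% of lower in NIKhKO. Of these 4, 2 were higher in NIKhKO without overlap, against 0.605% of all genes tested, and nothing is read from that count. Zbed4-ps1, a processed pseudogene inside Sult2a5 on the same strand (chr7:13639107-13642572), had 2.80, 5.27, 0.78, 0.955 and 3.0 FPKM in NIKhKO 1 to 5, against 0.106, 0.0475, 0.51, 0.486 and 0.542 FPKM in NIKflox 1 to 5. The ranges did not overlap (log2 fold change 2.96, SE 0.68, n = 5 each; edgeR adjusted p = 0.23, DESeq2 adjusted p = 0.009). Because it lies inside Sult2a5, its reads cannot be told apart from unspliced Sult2a5 RNA. Its p-values are therefore not independent of the contrast that chose the cluster. All 4 tested genes lie in the span that this contrast chose, so nothing is read from the p-values of any of them. Tmem167-ps1, between Sult2a5 and Sult2a2 (chr7:13719693-13719906, minus strand), averaged 3.05 ± 0.872 FPKM in NIKhKO and 0.95 ± 0.359 FPKM in NIKflox, also without overlap (log2 fold change 1.71, SE 0.34, n = 5 each; edgeR adjusted p = 0.19, DESeq2 adjusted p = 0.0061). Sult2a-ps1, an unprocessed pseudogene of the family beside it, overlapped between genotypes at 4.30 ± 2.12 FPKM in NIKhKO and 1.71 ± 1.19 FPKM in NIKflox (log2 fold change 1.37, SE 0.70, n = 5 each; edgeR adjusted p = 0.56). Kat6b-ps2, inside Sult2a1 on the same strand, averaged 0.864 ± 0.484 FPKM in NIKhKO and 0.286 ± 0.216 FPKM in NIKflox and also overlapped (log2 fold change 1.61, SE 0.57, n = 5 each; edgeR adjusted p = 0.37). Reads of Kat6b-ps2 likewise cannot be told apart from unspliced Sult2a1 RNA. Of the 50-base stretches, 5.7% of those of Sult2a5 and 6.1% of those of Sult2a4 also occurred in pseudogenes named Sult2a-ps. The level of Sult2a-ps1 may therefore not be a measurement separate from the members.

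Likeness of library profiles was measured as the root mean square difference of log2(FPKM + 1), centred per gene, over the 10 libraries and 10565 other genes with a mean of at least 1 FPKM. The genes most like Sult2a3 were Slc22a29 (0.371), a member of the organic anion transporter family, Saa2 (0.382), an acute-phase serum amyloid A protein, Serpinb1a (0.432), a protease inhibitor, Saa1 (0.466) and Car3 (0.472), a carbonic anhydrase. Slc22a29 averaged 5.01 ± 1.52 FPKM in NIKhKO and 1.36 ± 0.64 FPKM in NIKflox, and Car3 1139 ± 351 FPKM in NIKhKO and 556 ± 83.1 FPKM in NIKflox (SD, n = 5 each). Among the members, Sult2a5 ranked 19 in likeness to Sult2a3 (0.601), Sult2a2 ranked 89 and Sult2a1 ranked 666. The genes most like Sult2a1 were Cox19 (0.129), an assembly factor of cytochrome c oxidase, Smurf1 (0.163), a ubiquitin ligase, Hal (0.164), histidine ammonia-lyase, Ass1 (0.165), the argininosuccinate synthase of the urea cycle, and Qdpr (0.167), a dihydropteridine reductase. Sult2a2 ranked 34 in likeness to Sult2a1 (0.228). Sult2a5 lay farther from Sult2a1 (0.495). These measures hold the difference between genotypes as well as the spread within them.

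Around the sulfotransferases, 98 genes of 6 lists were looked up and 83 were tested. Of these, 1 passed in edgeR's quasi-likelihood test, 45 had a positive and 38 a negative log2 fold change, and the median was 0.04, against -0.01 over all genes tested. At an unadjusted p under 0.05 there were 22 of the 83, and 1273 of the 12731. DESeq2 called 6 of the 83, namely Akr1d1, Csad, Cyp2b10, Papss2, Sult5a1 and Ugt2b5, against 1.66% of all genes it tested. The lists were chosen with earlier results of these data known, so nothing is read from these counts against those of all genes. The gene called by edgeR was Csad, cysteine sulfinic acid decarboxylase, which belongs to taurine synthesis from cysteine and not to the making of PAPS. Csad fell to 3.91 ± 1.53 FPKM in NIKhKO, against 26.1 ± 9.79 FPKM in NIKflox (log2 fold change -2.67, SE 0.33, n = 5 each; edgeR adjusted p = 0.031). Leaving out any single one of 8 of the 10 libraries ended the call, and over all alternatives the adjusted p of Csad reached 0.14, while its log2 fold change stayed between -2.95 and -2.35.

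The other genes of PAPS supply and use were measured with 9 positive and 7 negative log2 fold changes, Csad included, and a median of 0.03. Papss2, the form of PAPS synthase that predominates in liver, had 49.0 to 68.2 FPKM in NIKhKO and 32.4 to 44.9 FPKM in NIKflox. The means were 55.1 ± 8.15 FPKM in NIKhKO and 37.5 ± 5.80 FPKM in NIKflox, with no overlap, but the difference did not pass in edgeR (log2 fold change 0.62, SE 0.14, n = 5 each; edgeR adjusted p = 0.23, DESeq2 adjusted p = 0.0075). Of the cytosolic sulfotransferases outside Sult2a, 6 of 13 were tested and 0 passed, with a median log2 fold change of 0.34 and 5 at an unadjusted p under 0.05. Sult1d1, which acts on phenolic substrates, averaged 65.3 ± 5.66 FPKM in NIKhKO and 52.6 ± 6.53 FPKM in NIKflox (edgeR adjusted p = 0.29). Sult5a1 averaged 0.316 ± 0.146 FPKM in NIKhKO and 1.09 ± 0.505 FPKM in NIKflox (edgeR adjusted p = 0.24, DESeq2 adjusted p = 0.007). Sult3a1, an amine sulfotransferase known as female-predominant in mouse liver, averaged 0.582 ± 0.731 FPKM in NIKhKO and 4.19 ± 3.18 FPKM in NIKflox (edgeR adjusted p = 0.36).

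Among 18 tested nuclear receptors, partners and their reference targets, 9 had positive and 9 negative log2 fold changes and 0 passed. Nr1h4, which encodes FXR, averaged 36.8 ± 2.31 FPKM in NIKhKO and 31.8 ± 4.11 FPKM in NIKflox (log2 fold change 0.28, SE 0.08, n = 5 each; edgeR adjusted p = 0.29). Nr1i3, which encodes CAR, averaged 70.2 ± 12.9 FPKM in NIKhKO and 67.6 ± 10.3 FPKM in NIKflox, and the 95% interval of its log2 fold change ran from -0.17 to 0.39. Nr1i2, which encodes PXR, averaged 27.2 ± 2.91 FPKM in NIKhKO and 28.7 ± 4.54 FPKM in NIKflox, with an interval from -0.24 to 0.22. Ppara, the fatty acid receptor, averaged 5.68 ± 1.13 FPKM in NIKhKO and 5.97 ± 1.36 FPKM in NIKflox, with an interval from -0.40 to 0.40. Cyp2b10, the reference target of CAR, averaged 103 ± 21.0 FPKM in NIKhKO and 58.1 ± 22.2 FPKM in NIKflox, with ranges that overlapped (log2 fold change 0.90, SE 0.25, n = 5 each; edgeR adjusted p = 0.26, DESeq2 adjusted p = 0.03). Cyp3a11, the reference target of PXR, averaged 838 ± 84.1 FPKM in NIKhKO and 671 ± 117 FPKM in NIKflox (edgeR adjusted p = 0.30).

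Of the genes that make the bile acid substrates, 16 were tested, 7 had positive and 9 negative log2 fold changes, and 0 passed. Cyp7a1, the rate-limiting enzyme of the classical pathway, averaged 14.4 ± 8.84 FPKM in NIKhKO and 14.5 ± 3.19 FPKM in NIKflox, with a 95% interval of the log2 fold change from -0.83 to 0.93. Akr1d1, the steroid reductase of bile acid synthesis, averaged 95.5 ± 9.60 FPKM in NIKhKO and 67.1 ± 9.50 FPKM in NIKflox without overlap (log2 fold change 0.58, SE 0.13, n = 5 each; edgeR adjusted p = 0.23, DESeq2 adjusted p = 0.007). Cyp39a1, an oxysterol hydroxylase, averaged 12.2 ± 4.15 FPKM in NIKhKO and 21.5 ± 4.70 FPKM in NIKflox (edgeR adjusted p = 0.29). Cyp27a1, the sterol side-chain hydroxylase, averaged 113 ± 16.9 FPKM in NIKhKO and 144 ± 13.6 FPKM in NIKflox (edgeR adjusted p = 0.44). Of 12 tested transporters of bile acids and conjugates 0 passed, with 7 positive and 5 negative log2 fold changes. Slco1a4, an uptake carrier, averaged 29.5 ± 5.22 FPKM in NIKhKO and 21.7 ± 4.94 FPKM in NIKflox (edgeR adjusted p = 0.35). Abcb4, the canalicular phospholipid exporter, averaged 19.4 ± 0.987 FPKM in NIKhKO and 25.1 ± 4.44 FPKM in NIKflox (edgeR adjusted p = 0.40). Slco2b1, another uptake carrier, averaged 27.9 ± 3.03 FPKM in NIKhKO and 24.5 ± 1.98 FPKM in NIKflox (edgeR adjusted p = 0.42).

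Of 15 tested genes of steroid metabolism 0 passed, with 9 positive and 6 negative log2 fold changes. Ugt2b5, which conjugates steroids with glucuronic acid, had 138 to 193 FPKM in NIKhKO and 239 to 297 FPKM in NIKflox (log2 fold change -0.64, SE 0.11, n = 5 each; edgeR adjusted p = 0.11, DESeq2 adjusted p = 0.00025). Srd5a1, a steroid reductase, averaged 8.55 ± 1.3 FPKM in NIKhKO and 12.3 ± 1.74 FPKM in NIKflox without overlap (edgeR adjusted p = 0.26). Hsd17b13, a lipid droplet dehydrogenase, averaged 228 ± 12.9 FPKM in NIKhKO and 211 ± 35.4 FPKM in NIKflox (edgeR adjusted p = 0.60). Female-biased liver genes, a group to which several Sult2a genes belong, had 12 positive and 13 negative log2 fold changes among 25 tested. Their median was -0.10, with 0 called and 13 at an unadjusted p under 0.05. Male-biased liver genes had 4 positive and 14 negative among 18 tested. The median there was -0.47, with 0 called and 4 at an unadjusted p under 0.05. Over all genes tested, 1273 of 12731 were at such a p. These 2 lists were also chosen with earlier results known, so nothing is read from their counts.

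**Figure D5:**
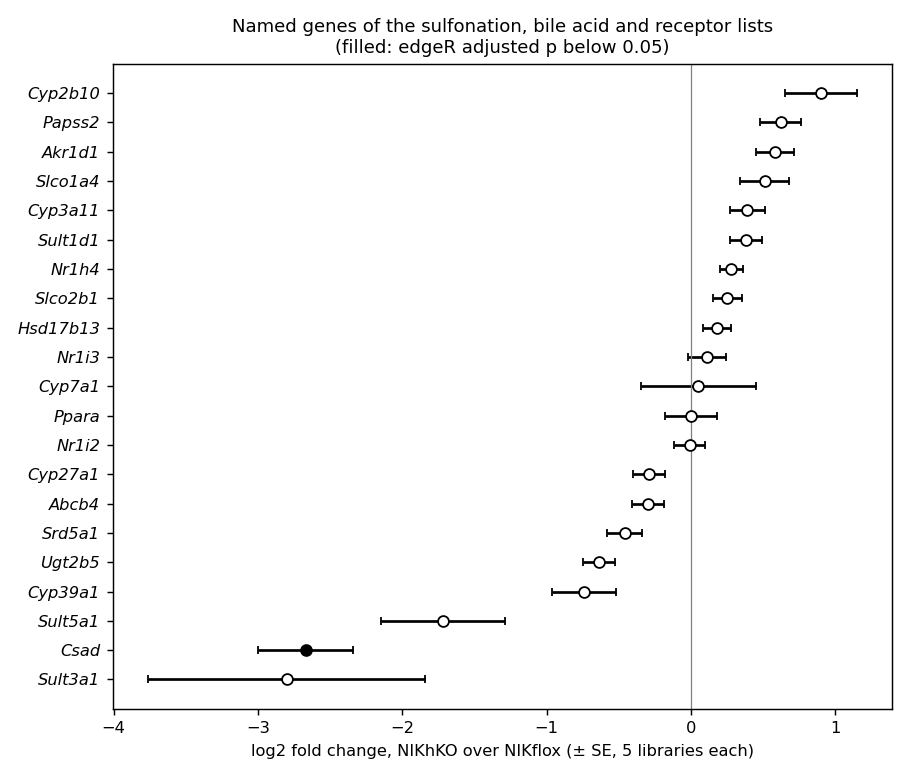
Log2 fold change of NIKhKO over NIKflox (± SE, 5 libraries each) for the named genes of the sulfonation, receptor, bile acid, transport and steroid lists, ordered by value. Csad is the only filled point, with an edgeR adjusted p of 0.031, and Cyp2b10, Papss2 and Akr1d1 have the largest positive values.

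Markers of other cell types stand beside these values. The 6 tested cholangiocyte markers all had negative log2 fold changes, with sums of 21.3 to 36.3 FPKM in NIKhKO and 36.7 to 56.1 FPKM in NIKflox, which did not overlap. The 9 stellate cell markers were also all negative, with sums of 40.1 to 56.5 FPKM in NIKhKO and 47.9 to 94.2 FPKM in NIKflox. The 5 tested markers of B cells and plasma cells were all positive, with sums of 5.48 to 15.0 FPKM in NIKhKO and 3.94 to 7.38 FPKM in NIKflox. Kupffer cell markers had sums of 147 to 221 FPKM in NIKhKO and 132 to 221 FPKM in NIKflox, and no marker of these lists was called. Of the adrenal cortex markers, Cyp11a1, Cyp11b1, Cyp11b2 and Mc2r were at a count of 0 in every library. The part of these cell types in the Sult2a levels was not tested.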

How the data were processed

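The deposited table held 2 columns per library, FPKM and an estimated count in whole numbers, per the file headers. The authors' FPKM values are scaled to length and depth, and their estimated counts are not normalized. Low estimated counts pile up at 4 (on average 907 genes per library, against 330.5 at 3 and 175.8 at 5), so a count is worth less than 1 read pair and the totals overstate depth. HISAT2 2.0.4, StringTie 1.3.4d, cutadapt 1.9 and edgeR are named, with the human build hg38, in the submitters' processing notes. The identifiers are mouse, and 51957 of 55401 genes (93.8%) have the same start and end in GENCODE M21 (GRCm38).

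The members and gene lists were chosen with earlier results of these data known. Libraries were grouped by genotype label. edgeR 4.0.16 in R 4.3.3 (quasi-likelihood, TMM, two-sided, Benjamini-Hochberg over all genes tested, called at adjusted p below 0.05) was fitted to genes whose mean FPKM reached 0.5, and to Map3k14. It was tested on simulated data. Log2 fold changes are NIKhKO minus NIKflox, and the SE is the fold change over the square root of F. The 95% intervals use the t distribution with the fit's degrees of freedom (11.3). Alternatives were RLE factors, DESeq2 1.42.0, limma 3.58.1 on log2(FPKM + 1) and log2(FPKM + 0.1), other filters, a replicate block and leaving out libraries. Named were all members, all other genes of the span, Map3k14, called genes of each of the 6 sulfonation, receptor, bile acid, transport and steroid lists or otherwise up to 3 with the smallest p (of the sex-biased and cell type lists, counts and sums), 7 genes whatever they did, and the 5 most like Sult2a3 and Sult2a1. Promoters are RefSeq's (GRCm38.p6). Identities come from pairwise alignments (Biopython 1.88).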

Additional observations from a re-analysis of the deposited data

Results flagged for a closer look

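A single library lay far from the other 4 of its genotype in 9 of 72 groups of 5 libraries looked at, by the size of its gap relative to the group's whole range. Chance flags about 1 in 20 groups of independent, normally distributed values. FPKM of genes from the same 10 libraries need not be such values, so the 9 flags are not read against that rate. Among the members, Sult2a7 had 8.14 FPKM in NIKhKO 1, against 0.204 to 0.603 FPKM in the other NIKhKO livers. NIKflox 4 had 1.97 FPKM of Sult2a7, against 0.0001 to 0.335 FPKM in the other NIKflox livers. The same library had 36.0 FPKM of Sult2a6, against at most 0.0694 FPKM in the other NIKflox livers, and 0.899 FPKM of Map3k14, against 0.483 to 0.585 FPKM. NIKhKO 4, the lowest NIKhKO library in Sult2a3, was highest of its genotype in Csad (6.57 FPKM, against 2.84 to 3.75), Sult5a1 (0.575 FPKM, against 0.235 to 0.275) and Cyp27a1 (142 FPKM, against at most 109.7). Akr1d1 reached 112 FPKM in NIKhKO 3, against 88.2 to 94.1 FPKM in the other NIKhKO livers. Kat6b-ps2, inside Sult2a1, had 0.663 FPKM in NIKflox 1, against 0.138 to 0.267 FPKM in the other NIKflox livers.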

How the results depend on the processing

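The log2 fold change of Sult2a3 ran from 1.85 to 2.15 when 1 library was left out and from 1.81 to 1.98 under the other alternatives, and that of Sult2a5 from 1.01 to 1.35 and from 1.0 to 1.21. The log2 ratio of the summed level stayed between 0.38 and 0.77. Sult2a6 (1.04 to 9.29), Sult2a7 (-0.54 to 3.37) and Sult2a8 (-0.17 to 0.36) depended on single libraries. The number of genes called was 3, and 207 with DESeq2, 0 with limma at either pseudocount, 8 with a mean FPKM of at least 2, 1 without NIKflox 2 and NIKflox 4, and 0 to 24 when single libraries were left out, 24 of them without NIKhKO 4. The number of list genes called was 1, and 6 with DESeq2, 0 with limma at either pseudocount, 0 without NIKflox 2 and NIKflox 4, and 0 to 2 when single libraries were left out. The adjusted p of Csad ran from 7.7e-15 to 0.14 over all alternatives. Cyp7a1 changed sign with limma (-0.21 and -0.24), with the replicate block (-0.18), without NIKflox 2 and NIKflox 4 (-0.11) and without single libraries (-0.23 to 0.29). Ppara, near 0.00, changed sign with RLE factors (0.01), DESeq2 (0.01), no filter (0.01), the stricter filter (0.00), the replicate block (0.00) and without NIKflox 2 and NIKflox 4 (0.13), and ran from -0.12 to 0.10 without single libraries. Nr1i2 ran from -0.07 to 0.06 without single libraries. The cause was not tested. Libraries of the same number did not deviate together (correlations from -0.316 to 0.0301). This gave no sign of pairing by number but cannot exclude it, as the labels do not say what the numbers mean. With the replicate block 2 genes were called.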
